A study of Drosophila melanogaster with 13 samples.

Results

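Flies cannot make sterols and take them from food, so cholesterol and plant sterols must be absorbed, carried in lipoproteins, moved out of lysosomes and, in some cells, turned into the steroid hormone ecdysone. The 10 genes described here cover these steps and were chosen by name and known role from 15682 genes in the count files. Earlier results of these data were known when they were chosen. *phm*, *dib*, *sad* and *shd* encode Halloween enzymes, cytochrome P450 hydroxylases that act in this order on the way from dietary sterol to the active ecdysteroid, *shd* at the last step. *Npc1a*, *Npc1b*, *Npc2a* and *Npc2b* are Niemann-Pick genes, whose products move sterol within cells and, for *Npc1b*, into the cells of the midgut. *magro* encodes a lipase of the gut that also splits sterol esters, and *Hr96* encodes a nuclear receptor that binds cholesterol and controls genes of sterol uptake. In the larva ecdysone is made in the prothoracic gland, whereas in the adult fly the ovary and other tissues are known as sources.

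Messenger RNA was sequenced from whole heads of adult flies, aged 0 to 5 days per the sample labels, in 10 libraries of 4 groups, to ask what the loss of either of 2 histone methyltransferases, trr and G9a, does to gene expression. The *trr* controls (n = 2) carried Elav-Gal4 and dicer2, each over a wild-type chromosome, with the empty landing site P{y[+t7.7]=CaryP}attP2, and the labelled *trr* knockdown libraries (n = 2) carried the same driver and dicer2 with the hairpin insertion P{TRiP.HMS01019}attP2. Elav-Gal4 drives the hairpin in neurons, and the RNA of whole heads also holds that of glia, fat body and other cells in which it is not driven. The *G9a* controls (n = 3) were G9a+/+ flies from a precise excision, and the labelled *G9a* mutant libraries (n = 3) carried the G9aDD1 allele. Each library came from pooled frozen heads, and the share of males and females is not given in the sources used here. In whole heads, fewer cells of a type and less RNA per cell cannot be told apart.

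The libraries held between 18114408 and 28171883 counts on genes. The counts of the targeted genes did not fall with the labels: *trr* had 1964 and 2589 counts in its controls, against 2651 and 2265 in the labelled *trr* knockdown libraries, and *G9a* had between 1011 and 1208 counts in its controls, against between 1526 and 1732 in the labelled *G9a* mutant libraries, so the word "labelled" is kept. Depth differed between libraries: per 1000000 gene counts the means were 83.0 and 90.0 for *trr* and 55.7 and 68.5 for *G9a*, controls first. Neither difference passed the adjusted test described below (1.08-fold and 1.20-fold higher, edgeR adjusted p = 0.679 and 0.188). *trr* overlaps *Coa8* in the genome, and reads of the overlap cannot be assigned. The study also measured *trr* RNA by RT-qPCR, in separate head material that was not analysed here. Photoreceptor genes, which mark heads, were abundant in all 10 libraries (6 genes, between 78324 and 87828 counts per 1000000 gene counts, or CPM, in the *trr* experiment, between 52650 and 60811 CPM in the *G9a* controls and between 73987 and 78722 CPM in the labelled *G9a* mutant libraries). Some marker genes of other body parts were higher in both replicates numbered 3 of the *G9a* experiment and both labelled *trr* knockdown libraries. Whether this RNA came from other body parts or from changed expression in heads was not tested. Replicate 3 of the *G9a* controls had 82.0 CPM over 12 midgut proteases, against 6.89 CPM or less in the other 9 libraries. Replicate 3 of the labelled *G9a* mutant libraries had 75.7 CPM over 6 genes of testis and male accessory gland, against 8.99 CPM or less in the others. Over 6 ovary genes the labelled *trr* knockdown libraries had 2.24 and 2.73 CPM, against 0.225 and 0.393 CPM in their controls and 0.395 CPM or less in the *G9a* experiment. The *trr* controls also differed more from each other than the labelled *trr* knockdown libraries did (chi-square per degree of freedom over genes 51.0 against 3.64).

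Of the 10 genes, 8 reached a sum of 10 counts in the 4 libraries of the *trr* comparison, and 9 in the 6 libraries of the *G9a* comparison. They were tested with edgeR (quasi-likelihood), with p-values adjusted over all genes tested by Benjamini-Hochberg, and a gene was called where its adjusted p-value was under 0.05 and it changed by over 1.5-fold. In the *trr* comparison 0 of the 8 were called, where 1.03% of all 11416 genes tested were called, 0.710% higher and 0.324% lower. At an unadjusted p-value under 0.05 there were 2, *shd* and *Npc2b*, where 2195 of all 11416 genes had one, and DESeq2 called 1, *shd*. In the *G9a* comparison 1 of the 9, *Npc2b*, was called lower, and 0 were called higher, where 7.56% of all 12329 genes were called, 5.57% lower and 1.99% higher. Over the members tested, the median log2 fold change was -0.06 for *trr* and -0.20 for *G9a*, against 0.00 and 0.04 over all genes tested.

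**Figure D1:**
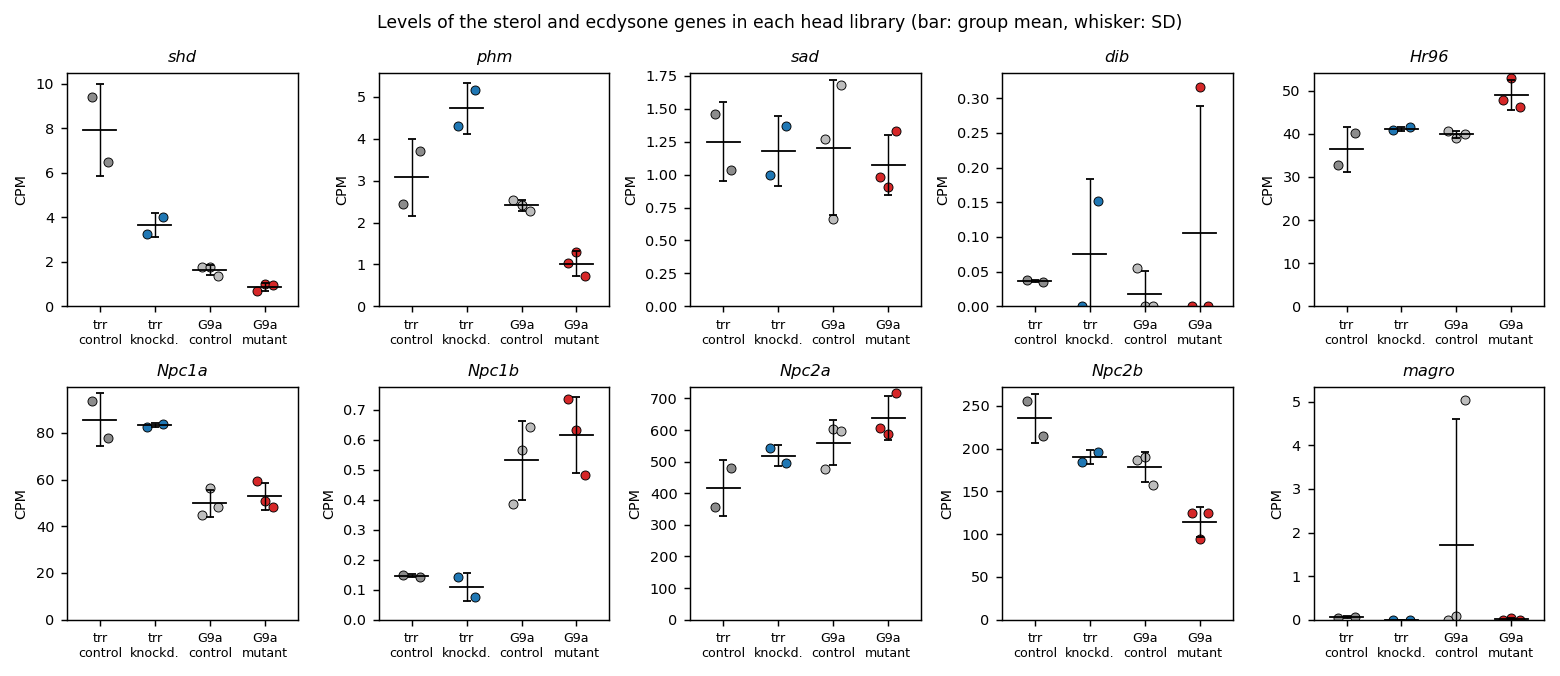
Level of each of the 10 genes in CPM (vertical axis from 0, its own scale in each panel) in the 10 libraries, by group; points are libraries, the bar is the group mean and the whisker its SD (n = 2 or 3). The mean of *shd* was 7.93 CPM in the *trr* controls and 3.64 CPM in the labelled knockdown libraries, *Npc2b* was lower in every library labelled *G9a* mutant, and *magro* was above 1 CPM in 1 control library only.

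Among the Halloween enzymes, *shd* (FBgn0003388), which turns ecdysone into the active hormone, had lower levels in both labelled groups, but passed the adjusted test in neither comparison. It had 9.40 and 6.47 CPM (251 and 181 counts) in the *trr* controls, against 3.27 and 4.02 CPM (92 and 106 counts) in the labelled *trr* knockdown libraries. In the *G9a* experiment it had 1.77, 1.75 and 1.38 CPM (32, 37 and 28 counts) in the controls, against 0.686, 0.988 and 0.966 CPM (14, 25 and 24 counts) in the labelled mutant libraries. Both labelled groups lay below their controls in every library, and the 4 groups did not overlap with one another, in the order *trr* control, *trr* knockdown, *G9a* control, *G9a* mutant. Groups that do not overlap are common at these sample sizes: 57.1% of all genes tested in the *trr* comparison (29.7% higher, 27.4% lower) and 32.1% in the *G9a* comparison (17.0% higher, 15.1% lower) had them.

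The log2 fold change of *shd* was -1.11 ± 0.24 (SE, 95% interval -1.70 to -0.53, n = 2 and 2, 2.17-fold lower) in the *trr* comparison, with an edgeR adjusted p of 0.102. In the *G9a* comparison it was -0.92 ± 0.37 (SE, interval -1.77 to -0.07, n = 3 and 3, 1.89-fold lower), with an edgeR adjusted p of 0.168. Neither passed the threshold, and the tests at the edge of it moved with the tool: DESeq2 called *shd* in the *trr* comparison (adjusted p = 0.0196), and edgeR on all 10 libraries in 1 fit called it in the *G9a* comparison (adjusted p = 0.0393). With *trr* control replicate 1 or 2 left out the *trr* log2 fold change of *shd* was -0.87 (adjusted p = 0.000226) or -1.33 (5.65e-12) and was called, but the spread then came from the labelled knockdown pair alone. The difference between the 2 effects was -0.19 on the log2 scale (interval -1.06 to 0.67, edgeR adjusted p = 0.815), an interval that holds a larger effect in either experiment.

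Markers of sex and of the female fat body also differed between the groups. Over the yolk protein genes *Yp1*, *Yp2* and *Yp3*, made in the fat body and ovary of females, the summed level was 7400 and 5505 CPM in the *trr* controls, against 3312 and 3439 CPM in the labelled knockdown libraries, and 2 of the 3 were called lower. In the *G9a* experiment it was 3503, 2788 and 7108 CPM in the controls, against 2227, 2058 and 3147 CPM in the labelled mutant libraries, with 0 called. The male-specific RNAs *roX1* and *roX2* summed to 2206 and 2282 CPM in the *trr* controls, against 1749 and 1904 CPM in the labelled knockdown libraries, and to between 673 and 905 CPM in the *G9a* controls, against between 1105 and 1362 CPM in the labelled mutant libraries. The log2 fold changes of *roX1* and *roX2* were -0.29 and -0.44 in the *trr* comparison (edgeR adjusted p = 0.202 and 0.241). In the *G9a* comparison they were 0.58 and 0.83 (edgeR adjusted p = 0.0330 and 0.0640), and neither RNA was called in either comparison. Unlike the yolk protein genes and the *roX* RNAs, ovary genes were higher in sum in the labelled *trr* knockdown libraries. Of the 6, only *nos* and *osk*, both of the female germ line, had enough counts to test. *nos* had 2 and 3 counts in control libraries, against 41 and 43 in the labelled knockdown libraries, and was called higher (edgeR adjusted p = 0.0249), and *osk* had 3 and 3 counts, then 17 and 27 (0.0878). The part of these differences in the levels of *shd* and *phm* was not tested.

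*phm* (FBgn0004959), the hydroxylase that acts first of the 4 enzymes, had fold changes of opposite sign in the 2 comparisons. It had 2.43 and 3.72 CPM (65 and 104 counts) in the *trr* controls, against 4.29 and 5.16 CPM (121 and 136 counts) in the labelled *trr* knockdown libraries. It had 2.54, 2.41 and 2.27 CPM (46, 51 and 46 counts) in the *G9a* controls, against 1.03, 1.30 and 0.725 CPM (21, 33 and 18 counts) in the labelled *G9a* mutant libraries. All labelled *trr* knockdown libraries were above their controls and all labelled *G9a* mutant libraries were below theirs.

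The log2 fold change of *phm* was 0.61 ± 0.28 (SE, interval -0.08 to 1.30, edgeR adjusted p = 0.294) in the *trr* comparison and -1.27 ± 0.35 (SE, interval -2.08 to -0.46, edgeR adjusted p = 0.0569, 2.41-fold lower) in the *G9a* comparison, so neither passed. DESeq2 (adjusted p = 0.0305), the filterByExpr filter (0.0253) and the fit of all 10 libraries (0.0169) called the second, and with *trr* control replicate 2 left out the first was called (0.99, adjusted p = 0.000166), with the spread again from the labelled knockdown pair. The difference between the 2 effects did pass, at 1.89 ± 0.45 on the log2 scale (SE, interval 0.88 to 2.89, edgeR adjusted p = 0.0260). *phm* was the 1 gene of the 10 with such a difference, and 9.86% of all 12871 genes in that fit had one. The difference was no longer past the threshold without *trr* control replicate 1 (1.58, adjusted p = 0.108), without labelled *trr* knockdown replicate 1 (2.01, 0.0932) or replicate 2 (1.75, 0.130), or without *G9a* control replicate 2 (1.90, 0.0517), in each case with the same direction. Without both *G9a* replicates numbered 3 it was 1.715 (adjusted p = 0.0393).

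*sad* (FBgn0003312), the hydroxylase that makes ecdysone, was low and did not differ beyond the spread between replicates. It had 1.46 and 1.04 CPM in the *trr* controls, against 0.994 and 1.36 CPM in the labelled *trr* knockdown libraries. In the *G9a* experiment it had 1.27, 0.662 and 1.68 CPM in the controls, against 0.980, 0.909 and 1.33 CPM in the labelled mutant libraries, from between 14 and 39 counts in each of the 10 libraries. The groups overlapped, with log2 fold changes of -0.08 (interval -0.87 to 0.72, edgeR adjusted p = 0.909) and -0.20 (interval -1.28 to 0.87, 0.818). These intervals are wide enough to hold a change of 1.5-fold. *sad* overlaps *CG6962* in the genome, and no step that marks the strand is described for these libraries, so reads of the overlap cannot be assigned.

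*dib* (FBgn0000449), which acts between *phm* and *sad*, was almost absent. Both *trr* controls had 1 count, and the labelled *trr* knockdown libraries had 0 and 4. The *G9a* controls had 1, 0 and 0 counts, and the labelled *G9a* mutant libraries had 0, 8 and 0, where a count of 0 allows up to 0.106 to 0.166 CPM for counting error alone. With 6 and 9 counts in all it was tested in neither comparison, and a change in heads was not detectable at this depth. It overlaps *wit*.

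**Figure D2:**
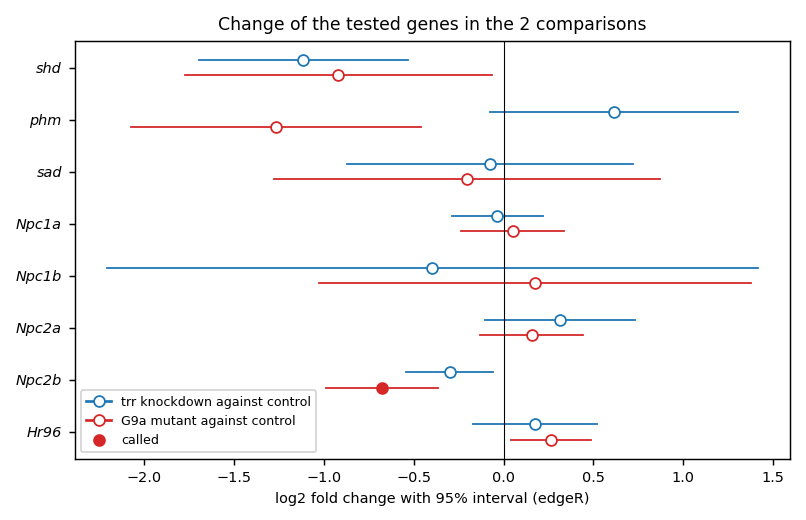
Log2 fold change of the 8 genes tested in both comparisons (horizontal axis) with 95% intervals, in blue for the labelled *trr* knockdown libraries and in red for those labelled *G9a* mutant, each against its own controls; filled points were called. *shd* was below 0 in both, *phm* lay at 0.61 in blue and -1.27 in red, and *Npc2b* in the *G9a* comparison was the 1 filled point.

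Among the Niemann-Pick genes, *Npc2b* (FBgn0038198), which encodes a soluble sterol-binding protein that acts with *Npc2a* in sterol balance, was the gene called. It had 187.0, 190.6 and 158.0 CPM in the *G9a* controls, against 124.7, 93.8 and 124.3 CPM in the labelled *G9a* mutant libraries. The highest mutant library was below the lowest control, with a log2 fold change of -0.68 ± 0.14 (SE, interval -0.99 to -0.36, n = 3 and 3, 1.60-fold lower, edgeR adjusted p = 0.0170). In the *trr* experiment it had 255.7 and 214.9 CPM in the controls, against 184.5 and 196.3 CPM in the labelled knockdown libraries, again without overlap, and a log2 fold change of -0.30 ± 0.10 (SE, interval -0.54 to -0.06, edgeR adjusted p = 0.199). The 2 effects differed by 0.38 (interval -0.06 to 0.82, edgeR adjusted p = 0.273).

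The *Npc2b* fold change lay close to the limit of 1.5-fold. A glmTreat test against 1.5-fold gave an adjusted p of 0.885. Without *G9a* control replicate 1 the log2 fold change was -0.64 (adjusted p = 0.0581), without control replicate 2 it was -0.64 (0.0725), and without replicate 2 of the labelled mutant libraries it was -0.55 (0.0371), which is under 1.5-fold. Without both *G9a* replicates numbered 3, a choice made after the data were seen, it was -0.81 (adjusted p = 0.0178).

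Marker levels of several cell types also differed between the *G9a* groups. Over 4 fat body genes (*Lsp2*, *apolpp*, *to* and *Fbp1*) the summed level was 459, 494 and 544 CPM in the *G9a* controls, against 293, 232 and 198 CPM in the labelled mutant libraries, and 3 of the 4 were called lower. *Fbp1* had a positive log2 fold change of 1.77 and was not called (edgeR adjusted p = 0.292). Over 3 oenocyte genes it was between 1205 and 1369 CPM in the controls, against between 554 and 614 CPM in the labelled mutant libraries. This sum rests on *Desat1*, called lower, with 113792 counts over the 6 libraries, against 1762 for *Cyp4g1* and 1758 for *FarO*. These other 2 had positive fold changes, and *FarO* was higher in every mutant library (edgeR adjusted p = 0.0350, under 1.5-fold). In the *trr* experiment the fat body sum was 2122 and 1792 CPM in the controls, against 2050 and 2122 CPM in the labelled knockdown libraries, with 0 of the 4 called. Photoreceptor genes were higher in sum in every labelled *G9a* mutant library than in any control, at 73987, 78684 and 78722 CPM against 52650, 60811 and 58192 CPM, with all 6 fold changes positive and 1 called, *Arr1*. All 5 glial genes had negative fold changes and 1, *alrm*, was called lower (3.07-fold). Their summed level overlapped between the groups, at 1877, 2351 and 2206 CPM in the controls, against 1904, 1853 and 2079 CPM in the labelled mutant libraries. Over 5 neuron genes it was 4004, 4132 and 3965 CPM in the controls, against 4532, 4575 and 4338 CPM in the labelled mutant libraries. Of these neuron genes, 3 had positive and 2 negative fold changes, and 0 were called. The part of these cells in the level of *Npc2b* was not tested.

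*Npc2a* (FBgn0031381) encodes the other soluble sterol-binding protein and had positive fold changes in both comparisons, past the threshold in neither. It had 355.1 and 479.8 CPM in the *trr* controls against 543.4 and 495.4 CPM in the labelled *trr* knockdown libraries, without overlap. It had 477.0, 603.4 and 596.9 CPM in the *G9a* controls against 607.2, 587.4 and 718.2 CPM in the labelled *G9a* mutant libraries, where the groups overlapped. The log2 fold changes were 0.31 ± 0.17 (SE, interval -0.10 to 0.73, edgeR adjusted p = 0.355) and 0.16 ± 0.12 (SE, interval -0.13 to 0.44, 0.467). Without *trr* control replicate 2 the first was 0.585 and called (adjusted p = 3.85e-25), from 1 control library and the spread of the other pair.

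Because *Npc2a* and *Npc2b* had fold changes of opposite sign in both experiments, the ratio of their counts was taken in each library, a measure chosen after the values were seen. It was 1.39 and 2.23 in the *trr* controls, against 2.94 and 2.52 in the labelled *trr* knockdown libraries. It was 2.55, 3.17 and 3.78 in the *G9a* controls, against 4.87, 6.26 and 5.78 in the labelled *G9a* mutant libraries. The ratio was thus higher in every labelled library than in any of its controls, from 1.81 to 2.73 on average in the *trr* groups (exact two-sided permutation test, p = 0.333, the smallest that groups of 2 allow) and from 3.16 to 5.64 in the *G9a* groups (p = 0.1, the smallest that groups of 3 allow), so neither design can reach 0.05.

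*Npc1a* (FBgn0024320), a membrane protein that lets sterol leave late endosomes and lysosomes, was at a similar level in the groups of each experiment. It had 93.8 and 77.6 CPM in the *trr* controls, against 82.7 and 83.9 CPM in the labelled *trr* knockdown libraries. It had 45.0, 56.4 and 48.3 CPM in the *G9a* controls, against 59.3, 51.0 and 48.2 CPM in the labelled *G9a* mutant libraries. The groups overlapped, and the intervals of the log2 fold change, -0.29 to 0.22 and -0.24 to 0.34, hold no change of 1.5-fold (edgeR adjusted p = 0.867 and 0.834).

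*Npc1b* (FBgn0261675), which the midgut needs to absorb dietary sterol, was near the floor of detection. Both *trr* controls had 4 counts, and the labelled *trr* knockdown libraries had 4 and 2. In the *G9a* experiment it had 7, 12 and 13 counts in the control libraries, against 15, 16 and 12 in the labelled *G9a* mutant libraries. Its log2 fold changes of -0.40 (interval -2.21 to 1.42) and 0.18 (interval -1.03 to 1.38) have intervals that hold large changes in either direction (edgeR adjusted p = 0.788 and 0.866). The *G9a* control library with midgut protease RNA, replicate 3, had 13 counts, 1 more than replicate 2.

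*magro* (FBgn0036996), the gut lipase, had 1 and 2 counts in the *trr* controls, against 0 and 0 in the labelled *trr* knockdown libraries, 3 in all, and was not tested there. In the *G9a* experiment it had 0, 2 and 102 counts in control libraries, against 0, 1 and 0 in the labelled mutant libraries. The 102 counts (5.04 CPM) were in control replicate 3, the library with 82.0 CPM over midgut proteases, where the other 2 controls had 2.15 and 0.378 CPM. The edgeR test gave an adjusted p of 0.108, rests on that 1 library and is given without a fold change, and without that library too few counts were left to test. *Npc2d*, another gene of the type 2 family, also had its counts in that library, with 10 in *G9a* control replicate 3, 1 count in replicate 2 of the labelled *trr* knockdown libraries and 0 in the other 8. The labelled *trr* knockdown libraries also had more midgut protease RNA than their controls (6.89 and 5.53 CPM against 0.487 and 0.965 CPM), and *magro* was at 0 in both. *magro* overlaps *atk* in the genome.

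**Figure D3:**
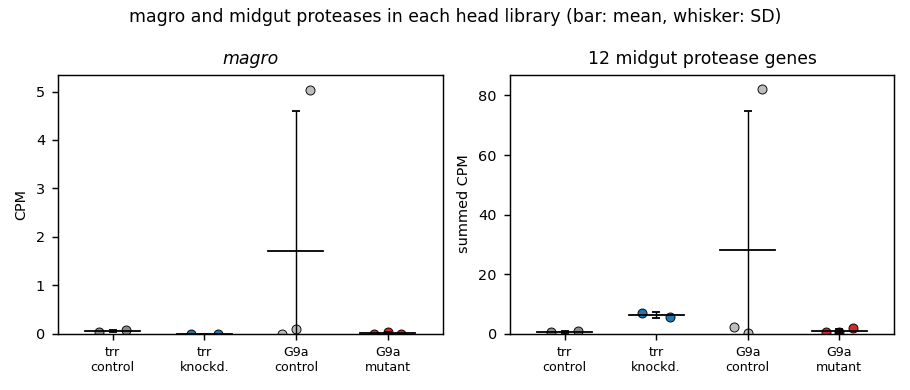
*magro* (left, CPM) and the summed level of 12 midgut protease genes (right, CPM) in the 10 libraries, by group; points are libraries, bars group means and whiskers SD. *G9a* control replicate 3 stands apart in both panels, at 5.04 and 82.0 CPM, and the mean and SD of its group rest on it.

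*Hr96* (FBgn0015240), the sterol-binding receptor, had 40.6, 39.0 and 40.0 CPM in the *G9a* controls, against 47.9, 52.9 and 46.2 CPM in the labelled *G9a* mutant libraries. Every mutant library was above every control, by 0.26 ± 0.10 on the log2 scale (SE, interval 0.04 to 0.49, 1.20-fold, edgeR adjusted p = 0.133). In the *trr* experiment it had 32.8 and 40.1 CPM in the controls, against 40.8 and 41.5 CPM in the labelled knockdown libraries, a log2 fold change of 0.17 (interval -0.17 to 0.52, edgeR adjusted p = 0.510). Neither passed, and the intervals hold no change of 1.5-fold. *Npc1b* and *magro*, which *Hr96* is known to control in the gut, were too low in heads to be read beside it.

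Levels also differed between the control groups of the 2 experiments, whose genotypes differ, so that genotype and experiment cannot be told apart. *shd* was at 7.93 ± 2.07 CPM (SD, n = 2) in the *trr* controls, against 1.63 ± 0.22 CPM (SD, n = 3) in the *G9a* controls, a ratio of 4.86. Over 9050 genes with at least 1 CPM in both, the 5th and the 95th percentile of the ratio were 0.490 and 2.49, with a median of 0.979. *Npc1a* stood at 1.72, *Npc2b* at 1.32, *phm* at 1.28, *sad* at 1.04, *Hr96* at 0.914 and *Npc2a* at 0.747, all within that range. Of the pathway genes with at least 1 CPM in both, *apolpp* (7.98) and *Npc2h* (3.29) were also above it.

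Genes whose pattern across the 10 libraries was most like that of a member were found with Pearson's r of log2 CPM after the mean of each experiment was subtracted, among 8866 genes with a mean of at least 50 counts a library. For *shd* they were *CG30345* (0.97), *Cyp6d5* (0.97) and *CG4594* (0.96). For *phm* they were *gem* (0.97), *sog* (0.96) and *CG4301* (0.96), and for *Hr96* they were *trus* (0.97), *CG11523* (0.96) and FBgn0035987 (0.95), which the gene tables used here do not name. For *Npc2b* they were *CG12268*, *Spn27A* and *Daao1* (0.98 each), for *Npc2a* *ND-75* and *ND-ASHI* (0.98 each) and *CG13367* (0.97), and for *Npc1a* *CG10804* (0.98), *wds* (0.96) and *CG31687* (0.93). The points share their libraries and depth, and the values are the highest of 8866, so they are high by selection.

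The wider pathway was followed with 38 other genes of ecdysteroid synthesis, ecdysteroid inactivation and transport, the Niemann-Pick type 2 family and sterol and lipoprotein uptake, of which 36 were matched in the files. In the *trr* comparison 32 were tested and 0 were called by edgeR, 5 had an unadjusted p under 0.05 (2195 of all 11416 genes did), DESeq2 called 1 (*Start1*, adjusted p = 0.00802), as did edgeR on all 10 libraries in 1 fit (0.0474), and the median log2 fold change was 0.03. In the *G9a* comparison 33 were tested, 3 were called higher (*Lip1*, *Cyp6t3* and *nobo*) and 5 lower (*Npc2g*, *Npc2h*, *apolpp*, *Apoltp* and *Lip4*), with a median of -0.05. The shares of all genes given above are 1.99% higher and 5.57% lower. In the glmTreat test against 1.5-fold *Lip1*, *Npc2g*, *Npc2h* and *Apoltp* kept the call, and *Cyp6t3*, *nobo*, *apolpp* and *Lip4* lost it. In that test the 932 *G9a* calls over all genes became 313.

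Of the other 12 ecdysteroid synthesis genes, 10 were tested in the *G9a* comparison and 2 were called higher. *Cyp6t3*, a P450 of the prothoracic gland, had 30, 28 and 24 counts in the *G9a* controls, against 74, 131 and 89 in the labelled mutant libraries, without overlap (log2 fold change 1.53 ± 0.29, SE, edgeR adjusted p = 0.0136). It lost the call without control replicate 2 (1.49, adjusted p = 0.0613), without control replicate 3 (1.42, 0.0552) or without mutant replicate 2 (1.34, 0.0678), and it overlaps *CG8858*. *nobo*, a glutathione transferase needed to make ecdysone, had 1551, 2179 and 2089 counts in control libraries, against 4149, 4096 and 4632 in the labelled mutant libraries (0.89 ± 0.12, SE, edgeR adjusted p = 0.00302). *Start1*, a lipid transfer protein related to the vertebrate cholesterol carrier StAR, was also higher in every mutant library, with 295, 472 and 404 counts against 603, 764 and 693, and passed the adjusted test at less than 1.5-fold (0.55 ± 0.13, SE, edgeR adjusted p = 0.0322), and at more without control replicate 2 (0.64, 0.0448).

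In the *trr* comparison the same list had 11 genes tested, 0 called and 8 with negative fold changes. The 3 largest changes among genes with enough counts were those of *Cyp6t3*, *Start1* and *dare*, the last an adrenodoxin reductase that passes electrons to mitochondrial P450 enzymes. *Cyp6t3* had 74 and 42 counts in the *trr* controls, against 26 and 31 in the labelled knockdown libraries (log2 fold change -1.01 ± 0.37, SE, edgeR adjusted p = 0.224). *Start1* had 676 and 418 counts against 286 and 266 (-0.98 ± 0.24, SE, 0.123), and *dare* had 344 and 232 counts against 128 and 173 (-0.92 ± 0.27, SE, 0.169). None passed the threshold, although with *trr* control replicate 1 left out *Start1* (-0.60, adjusted p = 8.87e-05) and *dare* (-0.62, 0.00305) were called, and with control replicate 2 left out all 3 were (adjusted p between 1.79e-26 and 8.04e-05), again with the spread of the labelled knockdown pair. In each of these genes, as in *shd*, *trr* control replicate 1 was above replicate 2, and both were above the labelled knockdown libraries. *Start1* overlaps *SIFa*, and *dare* overlaps *CG18335* and *CG30033*.

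The difference between the 2 effects was past the threshold for 9 of 35 pathway genes, where 9.86% of all genes had one. It was negative, lower in the *trr* than in the *G9a* comparison, for *Cyp6t3* (-2.54 on the log2 scale, edgeR adjusted p = 0.0102), *Start1* (-1.53, 0.00685), *nobo* (-1.36, 0.0144) and *dare* (-1.31, 0.0242), 4 of the 12 synthesis genes, and for *Lip1* (-3.004, 0.0329). *phm* differed the other way, at 1.89. *Oatp74D*, the transporter that brings ecdysone into cells, differed by 0.90 (0.00542), with 55.8 and 63.0 CPM in the *trr* controls, against 80.6 and 80.8 CPM in the labelled knockdown libraries, and with 32.0, 37.7 and 37.6 CPM in the *G9a* controls, against 24.9, 27.5 and 27.9 CPM in the labelled mutant libraries. Its fold changes were 0.44 (edgeR adjusted p = 0.123) and -0.45 (0.0337) on the log2 scale, each under 1.5-fold. *Oatp74D* overlaps *edin*. The other 4 genes of inactivation and transport, the ecdysteroid-degrading P450 *Cyp18a1* among them, were called in neither comparison, and the test of the difference did not pass for them.

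For *Start1*, *Oatp74D*, *Npc2g* and *Npc2h* the difference was past the threshold under all 16 alternatives, each library left out among them. *Cyp6t3* lost it without labelled *trr* knockdown replicate 1 (-2.38, edgeR adjusted p = 0.0785), *nobo* without labelled knockdown replicate 1 (-1.37, 0.0818) or 2 (-1.36, 0.0729), and *Apoltp*, whose difference was 0.90 (0.0107), without the same libraries (0.94, 0.0527, and 0.86, 0.0643). *dare* lost it without *trr* control replicate 1 (-0.998, 0.101), labelled knockdown replicate 1 (-1.07, 0.143), *G9a* control replicate 2 (-1.29, 0.0525) or mutant replicate 2 (-1.20, 0.0553). *Lip1* lost it without any 1 of 7 of the 10 libraries, and kept it without *trr* control replicate 1, *G9a* control replicate 3 or mutant replicate 3.

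**Figure D4:**
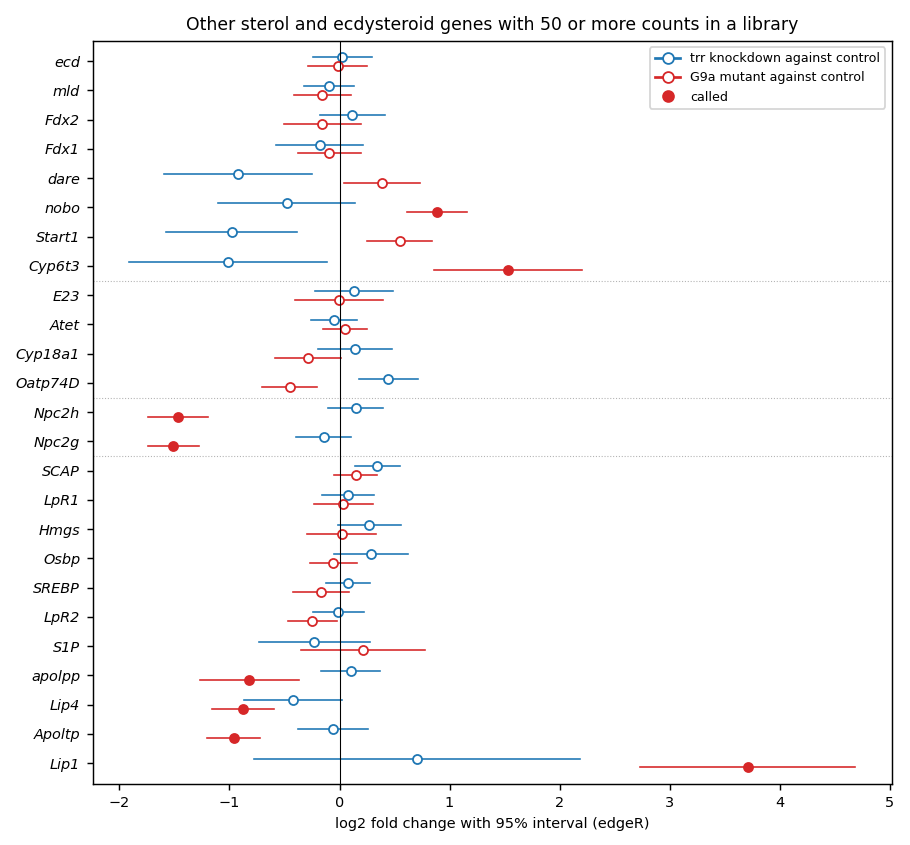
Log2 fold change with 95% interval (horizontal axis) of 25 other pathway genes that were tested and reached 50 counts in some library, in blue for the *trr* and in red for the *G9a* comparison; filled points were called, and dotted lines part synthesis, inactivation and transport, Niemann-Pick type 2 and sterol uptake genes, from top to bottom. *Cyp6t3*, *Start1*, *nobo* and *dare* had blue points left of 0 and red points right of 0, whereas *Npc2g* and *Npc2h* had red points near -1.5 and blue points near 0.

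Of the Niemann-Pick type 2 genes other than *Npc2a* and *Npc2b*, *Npc2g* and *Npc2h* were called. *Npc2g* had 4070, 4534 and 4781 counts in the *G9a* controls, against 1687, 1848 and 2163 in the labelled mutant libraries, a log2 fold change of -1.51 ± 0.10 (SE, 2.85-fold lower, edgeR adjusted p = 0.000137). *Npc2h* had 1371, 1460 and 1304 counts in the controls, with 581, 588 and 639 in the mutant libraries, and changed by -1.47 ± 0.12 on the log2 scale (SE, 2.76-fold lower, edgeR adjusted p = 0.000313). In the *trr* comparison their log2 fold changes were -0.14 (interval -0.40 to 0.11) and 0.15 (interval -0.10 to 0.40), with edgeR adjusted p-values of 0.455 and 0.447, and the effects in the 2 experiments differed by 1.37 (edgeR adjusted p = 0.000498) and 1.62 (0.000387). In the *G9a* comparison *Npc2b*, *Npc2g* and *Npc2h* were thus called lower, and *Npc2a* and *Npc2f* (0.24, adjusted p = 0.822) were not. *Npc2c*, *Npc2d* and *Npc2e* had 18 counts or fewer each over all 10 libraries. The fat body and photoreceptor sums and *alrm*, given beside *Npc2b*, differed between the same groups as *Npc2g* and *Npc2h*, and their part was not tested.

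**Figure D5:**
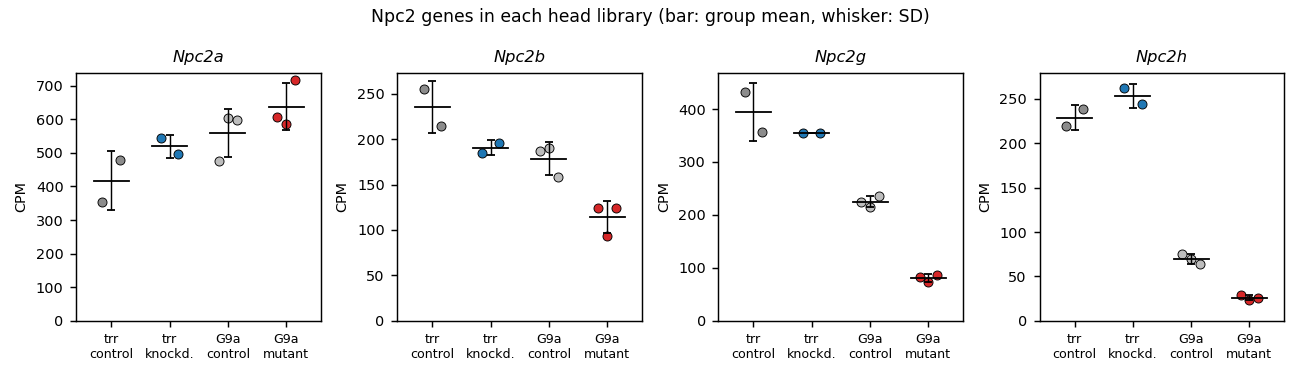
*Npc2a*, *Npc2b*, *Npc2g* and *Npc2h* in CPM (vertical axis from 0, its own scale in each panel) in the 10 libraries, by group; points are libraries, bars group means and whiskers SD (n = 2 or 3). *Npc2b*, *Npc2g* and *Npc2h* were lower in all 3 labelled *G9a* mutant libraries than in any *G9a* control, and *Npc2a* overlapped.

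Among the 13 genes of uptake, esterases and sterol sensing, 1 was called higher and 3 lower in the *G9a* comparison. *Lip1*, a lipase of the acid lipase family to which *magro* also belongs, had 3, 6 and 8 counts in the *G9a* controls, against 99, 94 and 75 in the labelled mutant libraries (log2 fold change 3.71 ± 0.42, SE, edgeR adjusted p = 0.00143). *Lip4*, of the same family, had 406, 512 and 459 counts against 279, 353 and 273 (-0.88 ± 0.12, SE, 0.00337). The lipoprotein genes *Apoltp*, which encodes the lipid transfer particle, and *apolpp*, which encodes the main carrier of sterol and fat in the hemolymph, were also lower. Their log2 fold changes were -0.96 (SE 0.10, edgeR adjusted p = 0.00108) and -0.82 (SE 0.20, 0.0350). *apolpp* is also 1 of the 4 fat body markers, it overlaps *Zyx*, and its call was lost without 4 of the 6 libraries in turn (*G9a* control replicates 2 and 3 and mutant replicates 2 and 3, adjusted p between 0.0697 and 0.124) and without both replicates numbered 3 (-0.60, 0.130).

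The genes of sterol sensing passed the threshold in neither comparison. *SREBP*, *SCAP*, *S1P* and *Hmgs*, which in flies serve lipid sensing and the making of isoprenoids, and the lipoprotein receptors *LpR1* and *LpR2* had log2 fold changes between -0.25 and 0.21 in the *G9a* comparison and between -0.23 and 0.34 in the *trr* comparison. *Osbp*, an oxysterol-binding protein, had -0.05 and 0.29. *Osbp* overlaps *CG11771*, *Hmgs* overlaps *Vha44*, *SREBP* overlaps *CG14102* and *mir-33*, and *LpR2* overlaps *lncRNA:CR46102*. *S1P* had the fewest counts of these genes, between 68 and 172 a library.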

How the data were processed

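RNA-seq libraries of fly heads were analysed from the authors' deposited counts per gene. Per the paper's methods, reads were aligned by the authors to dm3 using BWA 0.6.1, who kept uniquely mapped reads and counted them with HTSeq-count on Ensembl BDGP5.75, and no step that marks the strand is described. The deposited counts were not normalized. For the age of the flies the labels give 0 to 5 days, whereas the RNA methods state 1 to 5. The 5 summary lines per file were dropped; between 10.4% and 19.8% of reads fell outside genes. The trr binding sites were not used here. Gene symbols, and overlaps between genes, came from RefSeq tables of the Release 6 assembly, where *phm* is listed as phtm and *magro* as mag. *nvd*, *Mtp* and the fat body gene *FASN1* were not analysed here, and 1 gene of the pathway lists is counted but not reported singly here.

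CPM is counts per 1000000 gene counts, without further scaling. Each experiment was fitted alone in R 4.3.3 with edgeR 4.0.16 (TMM, quasi-likelihood test, Benjamini-Hochberg adjustment over all genes tested), on genes with at least 10 counts summed over its libraries, without a replicate block. SEs are the log2 fold change divided by the root of the F statistic, and intervals are at 95%. The difference between the 2 effects was tested in 1 fit of 4 group means over all 10 libraries, at an adjusted p under 0.05. The same code was tested on simulated counts. Replicates are biological replicates per the labels, and no libraries agreed within sampling noise. A count of 3 was taken as the limit that a count of 0 allows, which covers counting error only.

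The members and the pathway and marker lists were chosen with earlier results of these data known. Named are all 10 members, both targeted genes, every pathway gene called in either comparison, and the 3 pathway genes with the largest change in each comparison and a mean of at least 50 counts in the higher group; *Npc2d*, *Oatp74D*, *Npc2f*, *Cyp18a1*, *Osbp*, the lipoprotein receptors and the sterol-sensing genes were named after their values were seen. The alternatives were RLE normalization, DESeq2 1.42.0, the filterByExpr filter, no filter, the adjusted p alone, glmTreat against 1.5-fold, all 10 libraries in 1 fit, the percentage of reads outside genes as a covariate in the *G9a* fit, the replicate number as a block, each replicate left out and, added after the data were seen, both *G9a* replicates numbered 3 left out and a crossed block in the *trr* fit. The deviations of same-numbered libraries from the mean of their group correlated at 0.23, 0.21 and 0.50 in the *G9a* experiment. Those of unlike-numbered libraries correlated between -0.40 and 0.20. Control replicate 1 with mutant replicate 2, at 0.20, was level with the first 2 values, so the numbers do not clearly pair the libraries. No source names a shared batch, and the block was used only as an alternative.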

Additional observations from a re-analysis of the deposited data

Results flagged for a closer look

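The effects in the 2 experiments differed by the test of the difference itself for *phm*, at 1.89 on the log2 scale (*trr* effect minus *G9a* effect), and for 9 of 35 other pathway genes, where 9.86% of all genes had such a difference. *phm* was the 1 of the 10 genes with one, and its difference was not past the threshold without *trr* control replicate 1 (1.58), labelled *trr* knockdown replicate 1 (2.01) or 2 (1.75), or *G9a* control replicate 2 (1.90). These were *Cyp6t3* (-2.54), *Start1* (-1.53), *nobo* (-1.36), *dare* (-1.31) and *Lip1* (-3.004), lower in the *trr* than in the *G9a* comparison, and *Oatp74D* (0.90), *Npc2g* (1.37), *Npc2h* (1.62) and *Apoltp* (0.90), higher. Driver, genetic background and experiment differ together between the 2 comparisons, so their parts in these differences cannot be told apart. No group holds enough libraries for a test of single outlying values.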

How the results depend on the processing

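For the *trr* comparison, 0 of the 10 genes and 0 pathway genes were called, and these counts became 1 and 1 with DESeq2, 0 and 1 with all 10 libraries in 1 fit, between 0 and 3 and between 0 and 5 with 1 replicate left out, where the lone library of a group is assumed to vary like the other group. Over all genes the 118 calls became 510 with DESeq2, 29 without a filter on low counts, 35 with glmTreat, 246 in the fit of all 10 libraries and between 0 and 2009 with 1 replicate left out. For *G9a*, 1 of the 10 genes was called, 2 with DESeq2 or the filterByExpr filter, 0 with glmTreat, 3 in the fit of all 10 libraries and between 0 and 1 with 1 replicate left out. The 8 pathway genes called became 4 with glmTreat and between 6 and 8 with 1 replicate left out. Over all genes the 932 calls became 313 with glmTreat and between 652 and 944 with 1 replicate left out. The highest number over all genes in the 16 alternatives was 1372, so the calls over all genes also moved with the setting. The single member with different effects in the 2 experiments, *phm*, became between 0 and 1, and its difference ranged from 1.58 to 2.26; over all genes the 1269 such differences became between 377 and 1669 with 1 replicate left out.

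The replicate number as a block changed the number of *G9a* calls among the 10 genes and the pathway genes from 1 and 8 to 1 and 8. In the *trr* experiment same-numbered libraries correlated at -0.25, so the numbers were not taken to pair them; the block called 1 of the 10 genes (*shd*), 2 pathway genes and 819 genes in all, and the crossed block, added after the data were seen, called 1, 2 and 902.

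With 1 replicate left out, the sign changed for genes that were called in neither case. In the *trr* comparison the log2 fold change ranged from -0.31 to 0.14 for *sad*, -0.14 to 0.068 for *Npc1a*, -0.22 to 0.12 for *Apoltp* and -0.0066 to 0.21 for *apolpp*. In the *G9a* comparison it ranged from -0.066 to 0.14 for *Npc1a*, -0.0023 to 0.32 for *Npc1b* and -0.50 to 0.10 for *sad*. The cause of these changes was not tested. With 2 or 3 libraries a group, changes in *dib*, *Npc1b* and *magro* were not detectable at these counts.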
